A study of Homo sapiens with 8 samples.

Results

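The genes described here carry out and control cholesterol and fatty acid synthesis, and they were followed in CUTLL1 cells, a human leukemia line of the T-cell acute lymphoblastic kind whose NOTCH1 gene is rearranged. They were chosen by name, as regulators of the SREBP factors, sterol enzymes, fatty acid enzymes, sterol efflux genes and sterol transport genes. Of the 37 genes listed, 35 had a probe set of their own and were measured among 19775 genes in all; FADS1 and ACSL3 were not analysed here. Where a gene had several probe sets, the brightest on average stood for it. Messenger RNA had been hybridised to Affymetrix arrays, with 2 arrays for each of 4 groups. The first group received 1 microM PF-03084014, a gamma secretase inhibitor that blocks the cleavage activating NOTCH receptors, together with 1 microM dexamethasone, a synthetic glucocorticoid, and is called the combination. Cells of the other groups received 1 microM PF-03084014 alone, 1 microM dexamethasone alone, or the vehicle DMSO. All cells were cultured for 48 h in medium with 20% fetal bovine serum, which is itself a source of lipoproteins. The labels do not say whether the 2 arrays of a group came from separate cultures, so p-values measure only the spread between arrays, which may be technical. The series is 1 cell line in culture. In such bulk samples less RNA per cell and fewer cells in a given state cannot be told apart.

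Cells make cholesterol from acetyl-CoA through the mevalonate pathway, which builds isoprenoid units, joins them into squalene and closes and trims the sterol rings. SREBP transcription factors switch on the genes of this pathway and of fatty acid synthesis; they are carried out of the endoplasmic reticulum by SCAP when sterols are low and held there by the INSIG proteins when sterols are high. The LXR receptors, when oxysterols accumulate, raise the transporters that export cholesterol. Proliferating leukemic T cells need both sterols and unsaturated fatty acids for new membranes.

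Values are the probe-set intensities the authors deposited, on a linear scale, and are given in intensity units for each array. Differences are between group means of log2 intensity (values below 16 set to 16), each with the standard error (SE) of a limma fit to all 8 arrays, and "rose" or "fell" is used of genes whose two-sided p, after Benjamini-Hochberg adjustment over all genes, was under 0.05. Known targets of both compounds were checked first. The NOTCH target NRARP had 948 and 898 units with PF-03084014, against 6280 and 5414 units with DMSO, and the glucocorticoid target TSC22D3 had 5526 and 5478 units with dexamethasone, against 506 and 583 units with DMSO. All 9 T-lineage markers exceeded 100 units on both arrays of every group. Of the other cell types, 0 or 1 of 4 myeloid markers and 0 or 1 of 5 epithelial and stromal markers did so in any group, as did 2 of 4 B-lineage markers, whose summed level was 971 to 1363 units in the combination, 832 to 885 with PF-03084014, 871 to 875 with dexamethasone and 763 to 800 with DMSO. One library stood apart: the second combination array had a median intensity of 76.3 units, against 61.8 to 63.9 on the other 7, and the combination arrays differed by 2-fold or more at 1802 genes, against 347 with PF-03084014, 426 with dexamethasone and 482 with DMSO. The fit pools 1 spread over all groups, so standard errors of differences with the combination tend to be too small. Those of differences among the other groups tend to be too large, so counts called with and without the combination are not directly comparable.

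With both compounds, 16 of the 35 measured genes fell against DMSO and 0 rose. Over all genes tested the share that fell was 5.52% and the share that rose 6.42%. The median SE was 0.104 over the members and 0.178 over all genes, so calls come more easily among members, here and in the later comparisons. The 16 were ABCA1, FADS2, ELOVL6, STARD4, DHCR7, SCD, ACAT2, MSMO1, SQLE, HMGCS1, IDI1, FDPS, SREBF1, EBP, LSS and ACLY, with differences between -2.26 and -0.29. The median difference over the 35 genes was -0.393, against 0.0639 over all genes. By class, 5 of 9 enzymes from squalene to cholesterol fell, 4 of 8 mevalonate and isoprenoid enzymes, 4 of 7 fatty acid enzymes, 1 of 5 SREBP regulators, 1 of 3 LXR and efflux genes and 1 of 3 sterol transport genes. Both combination arrays lay below both DMSO arrays for 21 genes and above them for 1, where 21.5% of all genes lay below and 29.1% above. With the second combination array left out, 16 genes were called, 15 of them among the first 16; with the first left out, 22 were called, including all 16. The count was 9 without the second DMSO array and 10 without the first. The share of all genes called without 1 array is not given, so a change in these counts cannot be read as one in the members. In a fit of the 2 groups alone, 0 genes of any kind were called, members included. The calls therefore rest on pooling the spread over all groups. All 16 kept a negative difference in every alternative that measured them, except LSS, which was 0.074 with the mean of all its probe sets. Of 5 proliferation markers, MCM2 (-0.65) and CCNB1 (-0.24) fell with the combination, while PCNA (-0.13), MKI67 (0.002) and TOP2A (0.085) were not called. The summed intensity of the 5 was 30882 to 30924 units in the combination, 34398 to 35785 with PF-03084014, 32108 to 32119 with dexamethasone and 34027 to 34685 with DMSO. The bioB hybridisation control, a transcript added to every sample, read 563 and 700 units on the combination arrays and 886 and 741 on the DMSO arrays. The part of these controls and markers in the result was not tested.

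**Figure D1:**
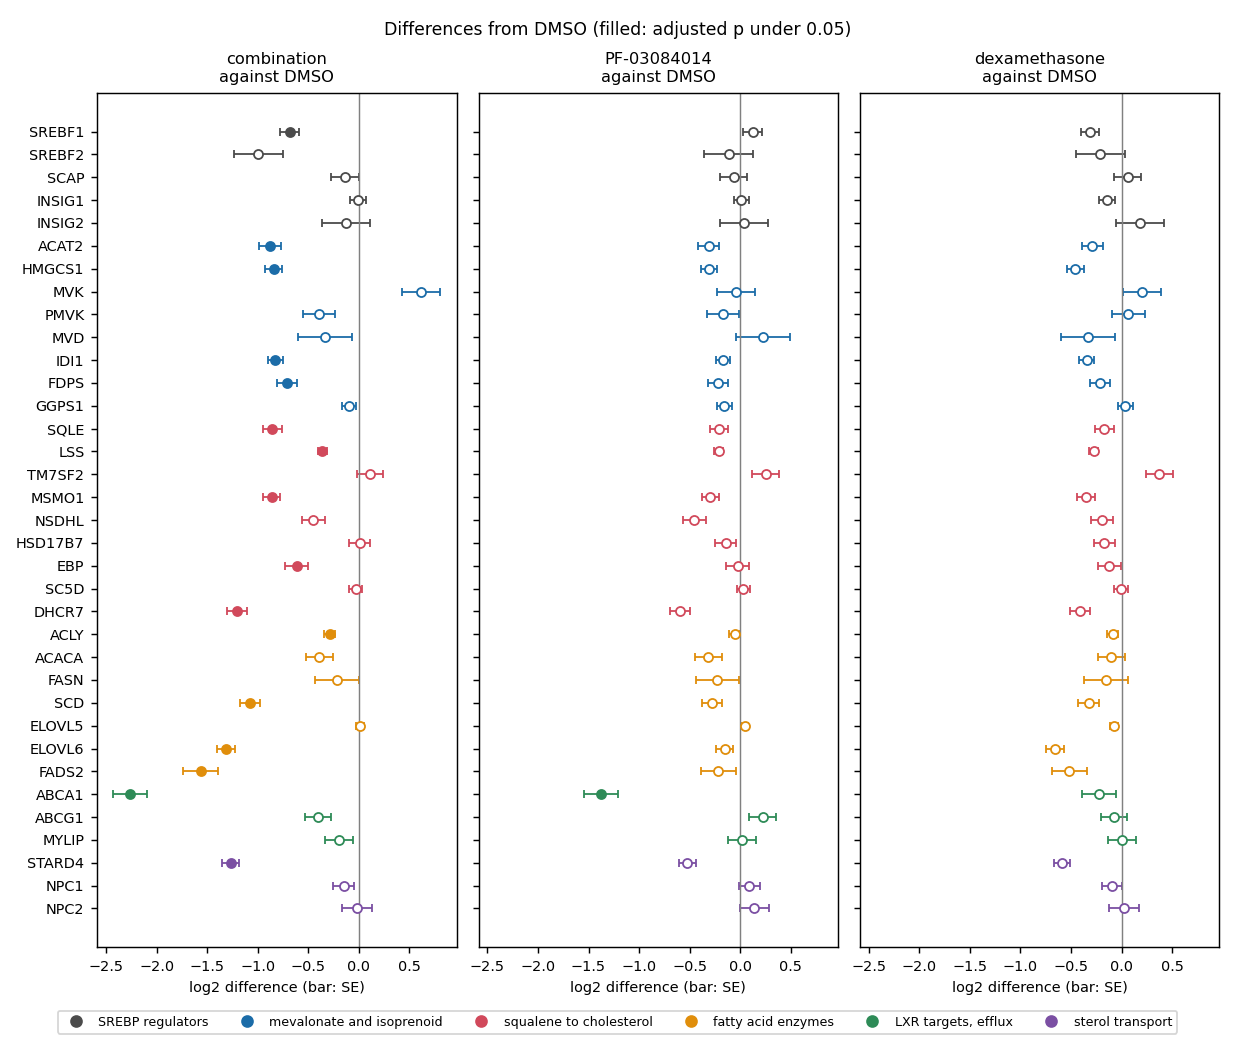
Log2 difference from DMSO (horizontal axis) of each of the 35 measured genes (rows, coloured by class) for the combination, PF-03084014 and dexamethasone; points are fitted differences, bars 1 standard error, and filled points have an adjusted p under 0.05. The combination panel has 16 filled points, all left of 0, the PF-03084014 panel has 1, ABCA1 at -1.38, and the dexamethasone panel has 0.

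Promoter windows show what the genes share outside the arrays. In the RefSeq promoter table (GRCh38.p14), whose windows run from 250 bases before to 50 bases after a start site, 33 of the 37 genes had an entry. CCAAT, the box bound by NF-Y, a factor that works beside SREBPs, stood on either strand in the windows of 25 of 33 genes (75.8%), against 39.7% of the 27305 genes in the table. It was present for 11 of the 14 matched genes that fell with the combination and for 14 of the 19 others. Those 19 include ACSL3, which has the box, and FADS1, which does not, although neither was analysed on the arrays. Genes with several windows had more chances to hold a motif; counted by window, it was in 29 of 46 member windows and 34.6% of 35116 windows. TCACNCCAC, the core of the sterol response element bound by SREBPs, matched exactly in 1 gene, SREBF2, against 1.39% of all genes. The glucocorticoid receptor motif AGAACA was in 1 gene, PMVK, against 17.5% of all genes, and TGGGAA, the core bound by RBPJ, the DNA partner of NOTCH, was in 5, against 28.1%. None of the 4 motifs contains another. A match describes a window and not a binding site. The windows below belong to the gene that holds the sterol response core and to 3 genes with large falls and CCAAT boxes; they were chosen after the values were seen, and capitals mark TCACNCCAC and CCAAT or their reverse complements.
SREBF2, chr22:41832855-41833154, plus strand: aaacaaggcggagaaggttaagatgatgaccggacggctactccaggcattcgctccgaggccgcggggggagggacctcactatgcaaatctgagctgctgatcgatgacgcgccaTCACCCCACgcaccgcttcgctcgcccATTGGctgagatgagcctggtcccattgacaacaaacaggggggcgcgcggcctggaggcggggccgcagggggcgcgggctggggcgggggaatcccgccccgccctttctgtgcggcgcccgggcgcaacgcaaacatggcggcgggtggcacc
STARD4, chr5:111512486-111512785, minus strand: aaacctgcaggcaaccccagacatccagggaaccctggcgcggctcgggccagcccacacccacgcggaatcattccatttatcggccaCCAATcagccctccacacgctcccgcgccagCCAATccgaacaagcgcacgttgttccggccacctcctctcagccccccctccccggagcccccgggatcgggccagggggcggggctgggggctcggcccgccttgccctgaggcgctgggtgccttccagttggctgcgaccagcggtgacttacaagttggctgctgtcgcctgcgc
DHCR7, chr11:71448344-71448643, minus strand: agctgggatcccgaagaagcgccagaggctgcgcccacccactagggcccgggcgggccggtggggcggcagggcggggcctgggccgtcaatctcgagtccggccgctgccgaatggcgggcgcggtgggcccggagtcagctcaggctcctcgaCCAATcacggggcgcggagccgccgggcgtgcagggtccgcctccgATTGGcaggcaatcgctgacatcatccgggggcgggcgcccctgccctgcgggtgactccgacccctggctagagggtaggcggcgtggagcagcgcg
SCD, chr10:100346983-100347282, plus strand: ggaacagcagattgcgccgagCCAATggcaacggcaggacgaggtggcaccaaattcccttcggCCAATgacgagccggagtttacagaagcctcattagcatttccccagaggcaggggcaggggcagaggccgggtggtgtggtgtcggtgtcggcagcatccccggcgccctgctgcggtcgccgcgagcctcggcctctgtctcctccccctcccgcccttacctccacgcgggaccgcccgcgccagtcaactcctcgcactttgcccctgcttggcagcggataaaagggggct
In SREBF2 the sterol response core begins at position -133 from the start site and the CCAAT box, here as ATTGG, at -106. The other windows hold 2 CCAAT boxes each, the first at -161 in STARD4, -94 in DHCR7 and -229 in SCD.

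Among the regulators, SREBF1, which encodes the SREBP that favours fatty acid genes, was the 1 gene called. SREBF1 had 1212 and 1058 units on combination arrays, 1903 and 2058 with PF-03084014, 1537 and 1393 with dexamethasone, and 1763 and 1877 with DMSO. Both combination arrays lay below all 6 others, both dexamethasone arrays lay between them and DMSO, and the PF-03084014 arrays lay above both DMSO arrays. The fall with the combination was 1.61-fold (-0.68 ± 0.09, SE; adjusted p = 0.0123, limma). SREBF2, the SREBP that favours sterol genes, is given because its promoter is shown; it had 315 and 188 units with the combination, 468 and 430 with PF-03084014, 413 and 426 with dexamethasone, and 466 and 506 with DMSO. Both combination arrays were again the lowest, but they were 0.74 log2 units apart, the widest gap of any member between combination arrays, and the difference of -0.995 ± 0.241 missed the threshold (adjusted p = 0.059). The escort SCAP and the anchors INSIG1 and INSIG2 had differences from -0.14 to -0.01 with the combination, and their combination arrays overlapped with DMSO. INSIG1, itself a well-known SREBP target, had 6634 and 7327 units with the combination, 6797 and 7340 with PF-03084014, 6283 and 6425 with dexamethasone, and 6689 and 7361 with DMSO, a difference of -0.01 (95% interval -0.20 to 0.18) between combination and DMSO; it was singled out after its values were seen.

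The first part of the mevalonate pathway fell at 4 of its 8 measured steps with the combination. ACAT2, the cytosolic thiolase that condenses acetyl-CoA, had 1349 and 1095 units with the combination, 1862 and 1741 with PF-03084014, 1874 and 1784 with dexamethasone, and 2286 and 2186 with DMSO. HMGCS1, the cytosolic HMG-CoA synthase, had 1935 and 2121 units with the combination, 2867 and 2985 with PF-03084014, 2543 and 2753 with dexamethasone, and 3429 and 3846 with DMSO. For both enzymes every combination array lay below the single-compound arrays, and these lay below both DMSO arrays. ACAT2 fell 1.84-fold (-0.88 ± 0.10, adjusted p = 0.00961) and HMGCS1 1.79-fold (-0.84 ± 0.08, adjusted p = 0.00562). IDI1, the isomerase that supplies the reactive isoprenoid unit, had 1847 and 1640 units with the combination, 2813 and 2676 with PF-03084014, 2379 and 2472 with dexamethasone, and 2990 and 3179 with DMSO. FDPS, which makes farnesyl diphosphate for both sterols and protein prenylation, had 3442 and 2855 units with the combination, 4422 and 4390 with PF-03084014, 4603 and 4262 with dexamethasone, and 4997 and 5277 with DMSO. The same stepwise order of the arrays held, with no overlap of combination and single compounds or of single compounds and DMSO. IDI1 fell 1.77-fold (-0.82 ± 0.07, adjusted p = 0.0045) and FDPS 1.64-fold (-0.71 ± 0.10, adjusted p = 0.0127). The kinases and the decarboxylase between HMGCS1 and IDI1 did not pass. The mevalonate kinase MVK differed by 0.62, the phosphomevalonate kinase PMVK by -0.39 and the decarboxylase MVD by -0.33, the last at 5.49 to 28.6 units over all 8 arrays, where values below 16 carry no order. GGPS1, which diverts the pathway to geranylgeranyl diphosphate, differed by -0.10.

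Beyond squalene, 5 of 9 enzymes fell with the combination. SQLE, the squalene epoxidase and a rate-limiting step, had 1869 and 1566 units with the combination, 2733 and 2623 with PF-03084014, 2715 and 2786 with dexamethasone, and 2974 and 3221 with DMSO. LSS, the cyclase that forms lanosterol, had 1103 and 1142 units with the combination, 1284 and 1208 with PF-03084014, 1181 and 1201 with dexamethasone, and 1448 and 1435 with DMSO. In both genes the combination arrays were the 2 lowest and the DMSO arrays the 2 highest. SQLE fell 1.81-fold (-0.86 ± 0.09, adjusted p = 0.00734) and LSS 1.28-fold (-0.36 ± 0.05, adjusted p = 0.0107). MSMO1, the oxidase that removes methyl groups from the ring, had 2272 and 2627 units with the combination, 3534 and 3713 with PF-03084014, 3513 and 3438 with dexamethasone, and 4214 and 4686 with DMSO. EBP, the isomerase that moves the ring's double bond, had 1655 and 1352 units with the combination, 2350 and 2169 with PF-03084014, 2222 and 1997 with dexamethasone, and 2365 and 2223 with DMSO. EBP differed from MSMO1 in that its PF-03084014 arrays overlapped with DMSO. MSMO1 fell 1.82-fold (-0.86 ± 0.09, adjusted p = 0.00626) and EBP 1.53-fold (-0.62 ± 0.11, adjusted p = 0.0297). EBP passed in 10 of 21 alternatives and had an adjusted p of 0.0566 without the second combination array. DHCR7, the reductase of the last step to cholesterol, had 411 and 361 units with the combination, 620 and 554 with PF-03084014, 679 and 652 with dexamethasone, and 845 and 927 with DMSO. It stepped up in that order without overlap between any groups, and its 2.30-fold fall with the combination was the largest of the sterol enzymes called (-1.20 ± 0.10, adjusted p = 0.00416). NSDHL, a dehydrogenase that takes part in removing the methyl groups, had 600 and 603 units with the combination, 669 and 538 with PF-03084014, 701 and 737 with dexamethasone, and 855 and 791 with DMSO. All 6 treated arrays lay below both DMSO arrays, but its difference of -0.45 ± 0.11 was not called (adjusted p = 0.0637). The sterol reductase TM7SF2, the ketoreductase HSD17B7 and the desaturase SC5D had differences of -0.03 to 0.11.

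Of the 7 measured fatty acid enzymes, 4 fell with the combination. FASN, the synthase itself, and ACACA, which makes its substrate malonyl-CoA, were not called, with differences of -0.22 and -0.39. ACLY, which supplies cytosolic acetyl-CoA from citrate, had 3979 and 3641 units with the combination, 4403 and 4540 with PF-03084014, 4431 and 4317 with dexamethasone, and 4557 and 4734 with DMSO, a 1.22-fold fall (-0.29 ± 0.05, adjusted p = 0.0305). Its arrays did not overlap between the combination and any other group, and ACLY passed in 9 of 20 alternatives. The larger falls were in enzymes that lengthen and desaturate fatty acids. SCD, the delta-9 desaturase that makes oleate, had 4055 and 4147 units with the combination, 6913 and 7340 with PF-03084014, 6860 and 6928 with dexamethasone, and 7768 and 9618 with DMSO. ELOVL6, an elongase of saturated and monounsaturated chains, had 725 and 869 units with the combination, 1785 and 1756 with PF-03084014, 1230 and 1269 with dexamethasone, and 1983 and 1959 with DMSO. FADS2, the delta-6 desaturase, had 617 and 426 units with the combination, 1247 and 1360 with PF-03084014, 1029 and 1090 with dexamethasone, and 1511 and 1516 with DMSO. Combination arrays were the lowest in all 3 genes, and for ELOVL6 and FADS2 the dexamethasone arrays came next. SCD fell 2.11-fold (-1.08 ± 0.10, adjusted p = 0.0056), ELOVL6 2.48-fold (-1.31 ± 0.09, adjusted p = 0.00329) and FADS2 2.95-fold (-1.56 ± 0.17, adjusted p = 0.0078). The size for FADS2 rests on its brightest probe set, as its additional probe set differed by -0.46 and was not called. ELOVL5, an elongase of polyunsaturated chains, stayed between 8652 and 9422 units on all 8 arrays, with a difference of 0.01 (95% interval -0.08 to 0.10).

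Over the brightest probe set of each gene, the largest difference with the combination was in an efflux gene. ABCA1, the transporter that loads cellular cholesterol onto apolipoprotein A-I and a standard LXR target, had 304 and 418 units with the combination, 627 and 686 with PF-03084014, 1465 and 1456 with dexamethasone, and 1565 and 1855 with DMSO. All 4 groups were separate, with the combination lowest, then PF-03084014, then dexamethasone. ABCA1 was 4.78-fold lower with the combination (-2.26 ± 0.17, adjusted p = 0.00376). With every probe set of a gene averaged, ABCA1 differed by -1.13, and SCD, at -2.17, exceeded it. ABCG1, the LXR target that passes cholesterol to mature high-density lipoprotein, had 2146 and 2138 units with the combination, 3119 and 3507 with PF-03084014, 2696 and 2684 with dexamethasone, and 2490 and 3233 with DMSO; it is shown for contrast with ABCA1, a choice made after the values were seen. The combination arrays were lowest, the PF-03084014 arrays overlapped with DMSO, and the difference of -0.41 ± 0.13 was not called (adjusted p = 0.114). MYLIP, an LXR target that degrades lipoprotein receptors, differed by -0.20. Among transport genes, STARD4, a cytosolic sterol carrier regulated by SREBP, had 547 and 612 units with the combination, 945 and 995 with PF-03084014, 951 and 904 with dexamethasone, and 1325 and 1465 with DMSO. Single-compound arrays overlapped with each other and lay between the combination and DMSO, and STARD4 was 2.41-fold lower with the combination (-1.27 ± 0.08, adjusted p = 0.00329). The lysosomal exporters NPC1 and NPC2 differed by -0.15 and -0.02, and their arrays overlapped with DMSO.

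**Figure D2:**
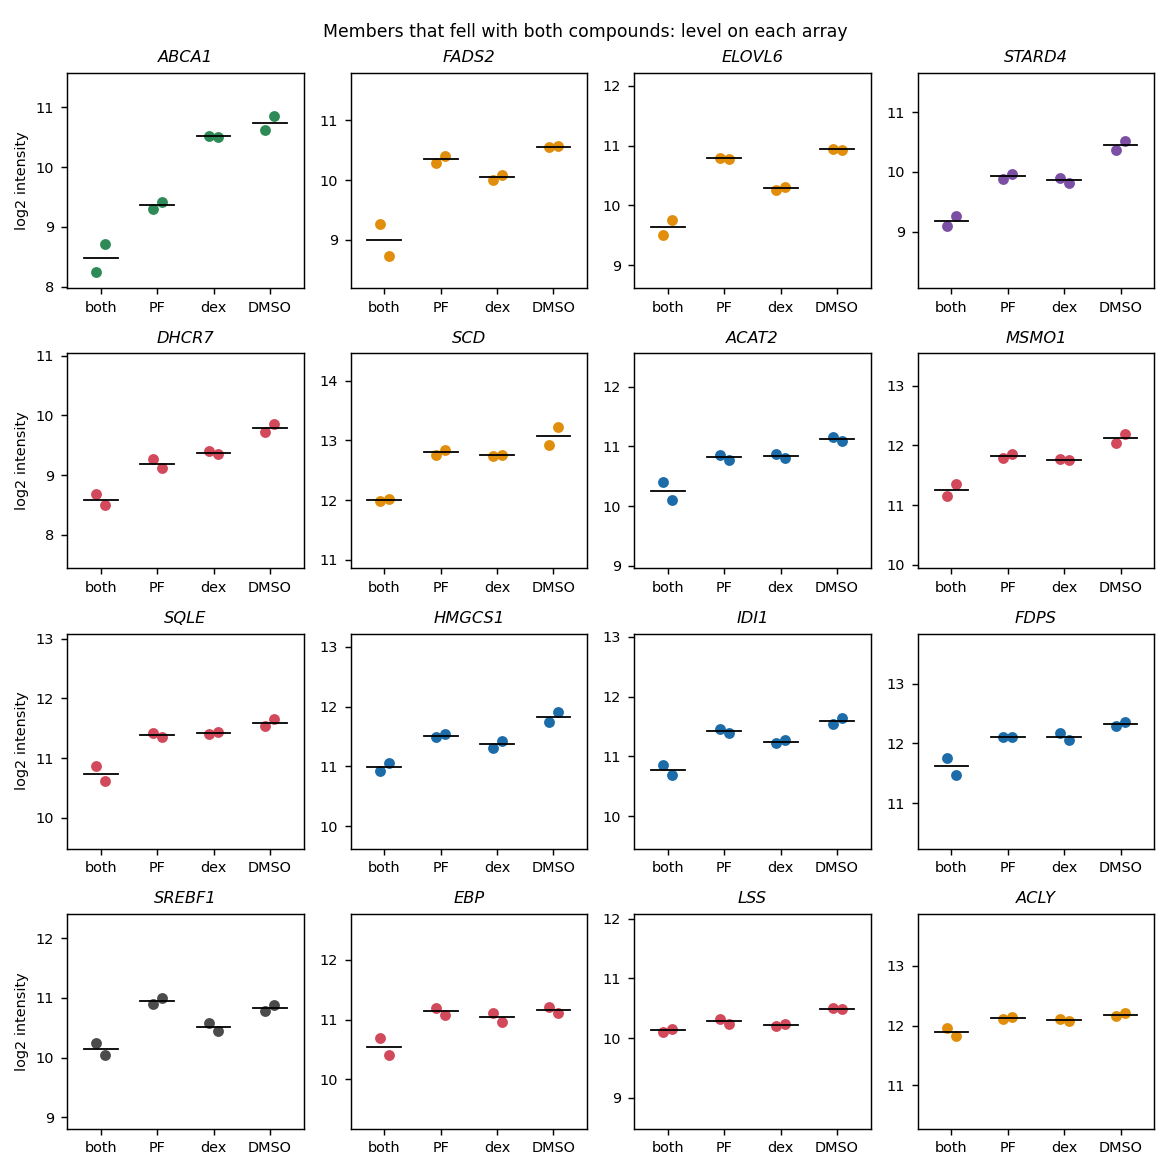
Log2 intensity (vertical axis, the same span of 3.6 units in every panel) on each array for the 16 genes that fell with the combination, ordered by size of fall; points are arrays, lines group means, and the groups are both compounds (both), PF-03084014 (PF), dexamethasone (dex) and DMSO. In every panel the combination points lie lowest, from ABCA1 at -2.26 below DMSO to ACLY at -0.29.

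PF-03084014 alone lowered 1 member. ABCA1 was 2.60-fold lower than with DMSO (-1.38 ± 0.17, adjusted p = 0.0423), where 0.349% of all genes fell and 0.47% rose. That call was made without either combination array, but not without any 1 of the 6 other arrays, and not in the fit of all probe sets (adjusted p = 0.0677). At an unadjusted p under 0.05, 9 members were lower and 0 higher, against 4.99% and 8.25% of all genes. The 9 were ABCA1, DHCR7, STARD4, NSDHL, ACAT2, HMGCS1, MSMO1, SCD and LSS, 6 of them sterol enzymes. DHCR7 had a difference of -0.60 ± 0.10 (adjusted p = 0.0793) and STARD4 one of -0.52 ± 0.08 (adjusted p = 0.0692); both passed with a pseudocount of 16 and with dim genes left out. Both PF-03084014 arrays lay below both DMSO arrays for 21 members and above them for 5, against 19.6% and 26.9% of all genes. The median difference was -0.155, against 0.018 over all genes. SREBF1, at 0.12 ± 0.09, was not among those lower.

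Dexamethasone alone changed 0 members at the adjusted threshold, where 0.0152% of all genes fell and 0.086% rose in the limma fit. At an unadjusted p under 0.05, 11 were lower and 1, TM7SF2, was higher, against 3.49% and 5.47% of all genes. The 11 were SREBF1, ACAT2, HMGCS1, IDI1, LSS, MSMO1, DHCR7, SCD, ELOVL6, FADS2 and STARD4. ELOVL6 had the largest difference, -0.66 ± 0.09 (adjusted p = 0.121), and passed when either combination array was left out, at -0.66 with adjusted p = 0.0437 and 0.0453. STARD4 differed by -0.59 ± 0.08 (adjusted p = 0.132) and FADS2 by -0.52 ± 0.17 (adjusted p = 0.47). FADS2 turned to 0.0724 when probe sets ending in _x_at or _s_at were left out. Both dexamethasone arrays lay below both DMSO arrays for 21 members and above them for 3, against 17.7% and 24.9% of all genes. The median difference was -0.170, against 0.0137 over all genes. ABCA1, the gene that fell with PF-03084014, differed by -0.22 ± 0.17 with dexamethasone (adjusted p = 0.819). The comparisons with DMSO share its 2 arrays, so they are not independent of each other.

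Set against dexamethasone, the combination lowered 11 members and raised 0, where 3.97% of all genes fell and 3.26% rose. The 11 were ABCA1, FADS2, DHCR7, SCD, SQLE, STARD4, ELOVL6, ACAT2, MSMO1, FDPS and IDI1. ABCA1 was 4.10-fold lower (-2.04 ± 0.17, adjusted p = 0.011) and FADS2 2.06-fold lower (-1.05 ± 0.17, adjusted p = 0.0323). DHCR7 was 1.73-fold lower (-0.79 ± 0.10, adjusted p = 0.0191). The median over the 35 genes was -0.305, against 0.0406 over all genes. The counts that follow, without 1 array, come with no share of all genes and cannot be read as being about the members. Leaving out the second combination array left 9 members called, and leaving out the first gave 20. The count was 5 without either DMSO array, 1 without either PF-03084014 array and 0 without either dexamethasone array.

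Against PF-03084014, the combination lowered 10 members and raised 0, where 1.75% of all genes fell and 1.09% rose. These were FADS2, ELOVL6, SREBF1, SCD, STARD4, IDI1, SQLE, DHCR7, MSMO1 and HMGCS1. FADS2 was 2.54-fold lower (-1.34 ± 0.17, adjusted p = 0.0293) and ELOVL6 2.23-fold lower (-1.16 ± 0.09, adjusted p = 0.0148). SREBF1 was 1.75-fold lower (-0.81 ± 0.09, adjusted p = 0.024). ABCA1 was not called in this comparison. The median was -0.243, against 0.0271 over all genes. For the counts without 1 array that follow, the share of all genes called is again not given. The count was 8 without the second combination array and 20 without the first, 2 without either DMSO array and 0 without any 1 of the PF-03084014 or dexamethasone arrays. The bioB control read 634 and 598 units on the PF-03084014 arrays and 741 to 886 units on the 4 arrays without that compound. It thus separated both groups given PF-03084014 from DMSO and from dexamethasone, while the combination and PF-03084014 arrays overlapped. Its part in these results was not tested.

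The interaction asks whether the difference with both compounds was larger or smaller than the sum of the single differences. In the limma fit 0 members and 0% of all genes had an adjusted p under 0.05. At an unadjusted p under 0.05, 10 members were lower than the sum and 0 higher, against 5.22% and 3.84% of all genes. They were FADS2, ABCA1, ABCG1, TM7SF2, ELOVL6, SREBF1, SQLE, EBP, SCD and IDI1. Lower than the sum did not always mean that each compound lowered the gene. TM7SF2 differed from DMSO by 0.25 with PF-03084014, 0.37 with dexamethasone and 0.11 with both. With PF-03084014 alone SREBF1 differed by 0.12 and ABCG1 by 0.22. Of the 10, FADS2 had the largest interaction, -0.83 ± 0.24 (95% interval -1.45 to -0.21, adjusted p = 0.45), and ELOVL6 had one of -0.50 ± 0.12 (95% interval -0.81 to -0.19, adjusted p = 0.396). HMGCS1, at -0.07 (95% interval -0.36 to 0.21), and DHCR7, at -0.19 (95% interval -0.55 to 0.16), had intervals that reach 0. The median over the 35 genes was -0.213, against 0 over all genes. Without the first combination array 5 members were called, namely ELOVL6, FADS2, PMVK, SQLE and SREBF2, together with 5.14% of all genes; without the second, 0 were.

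**Figure D3:**
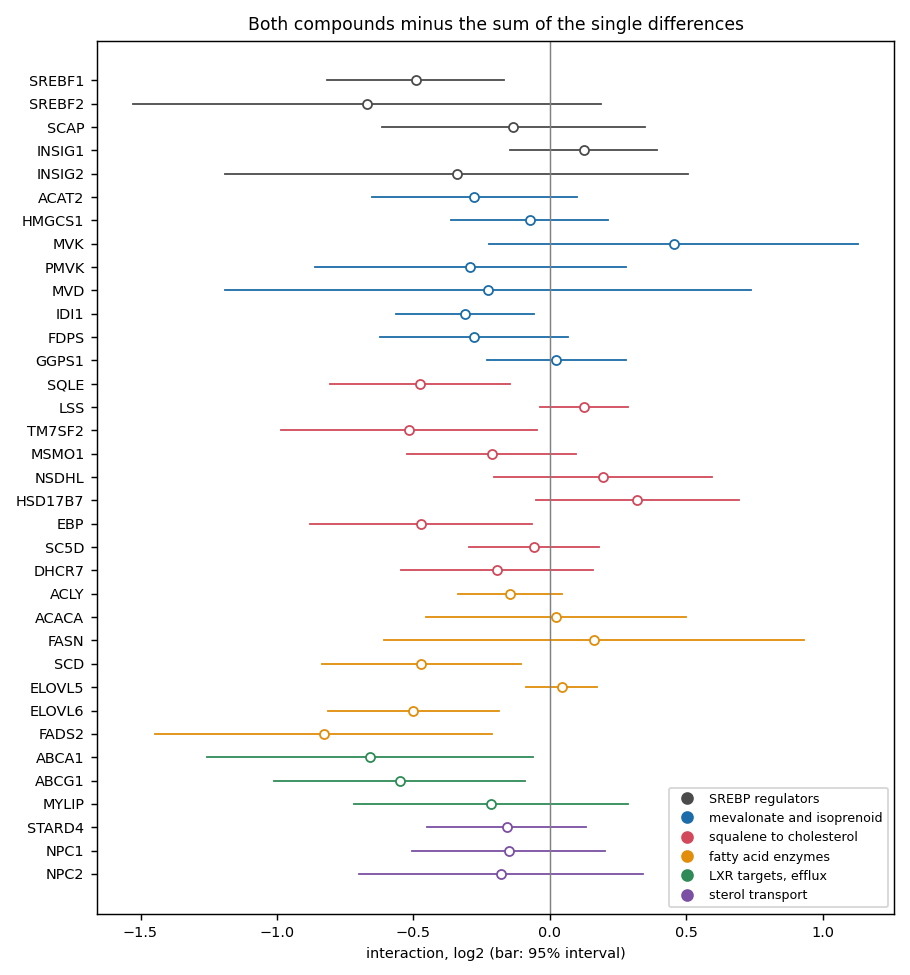
Interaction of the compounds for each of the 35 measured genes (rows, coloured by class), as the log2 difference with both compounds minus the sum of the single differences (horizontal axis); points are fitted values and bars 95% intervals. FADS2 at -0.83 lies furthest left with an interval that excludes 0, HMGCS1 at -0.07 lies near 0, and no gene had an adjusted p under 0.05.

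Several members are read by more than 1 probe set, which gives a second look at the same RNA. The 35 genes had 86 probe sets, and 24 genes had more than 1. Fitted over all 41097 probe sets, 12 of the 51 additional ones were lower with the combination than with DMSO and 0 were higher, against 3.98% and 3.97% of all probe sets. Of the 33 with a mean above 100 units, 11 were lower. The additional SCD probe sets differed by -2.09, -1.96 and -3.55, all called and all beyond the -1.08 of the brightest. ABCA1 differed by -2.17 on its second probe set, ELOVL6 by -1.56, DHCR7 by -1.09, HMGCS1 by -1.10 and IDI1 by -0.81, each called. Probe sets disagreed for several regulators, 1 kinase and, among the genes that fell, ABCA1, FADS2 and LSS. With the mean of all probe sets ABCA1 differed by -1.13 and LSS by 0.074, against -2.26 and -0.36 on the brightest. SREBF2 fell on a second probe set (-0.68 ± 0.13, adjusted p = 0.0427) and differed by 0.04 on the dimmest. INSIG1 fell on its dimmest probe set (-0.52 ± 0.09, adjusted p = 0.033), with -0.22 and -0.01 on the brighter ones, which were not called. MVK fell on its second probe set (-0.66 ± 0.05, adjusted p = 0.00699), while the brightest gave 0.62 and was not called, so no direction is given for it. The additional FADS2 probe set differed by -0.46 and was not called. The arrays label some probe sets, among them the brightest of IDI1 and HSD17B7, as able to bind related transcripts.

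**Figure D4:**
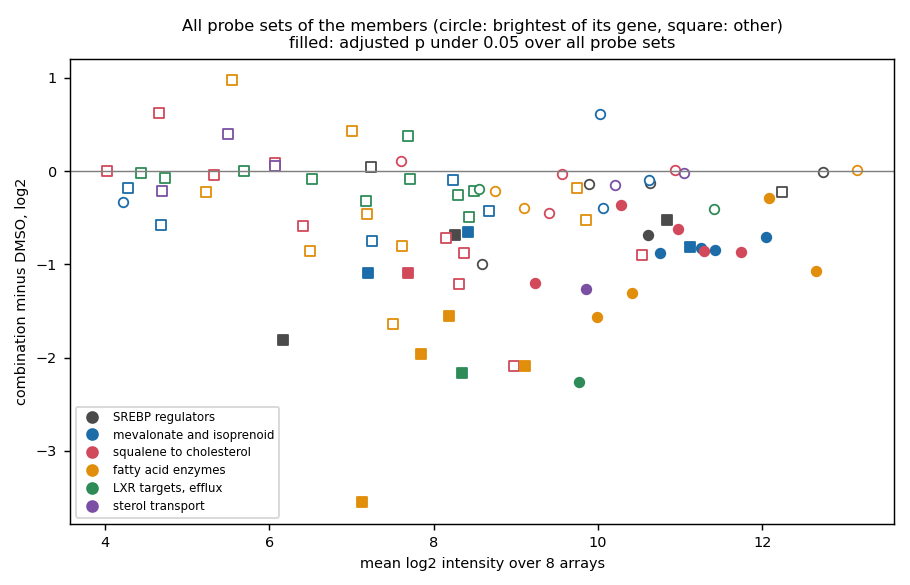
Log2 difference between combination and DMSO (vertical axis) against mean log2 intensity over the 8 arrays (horizontal axis) for the 86 probe sets of the measured genes, coloured by class; circles are the brightest probe set of a gene, squares the others, and filled symbols have an adjusted p under 0.05 over all probe sets. All filled symbols lie below 0, the lowest being an SCD probe set at -3.55, and the open circle at 0.62 is MVK.

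Genes of the same pathways outside the list were taken from textbook roles, and 21 of 25 were measured. With the combination 3 fell and 0 rose against DMSO, where 5.52% of all genes fell and 6.42% rose. RXRA, the partner receptor of LXR, had 164 and 152 units with the combination, 309 and 276 with PF-03084014, 359 and 362 with dexamethasone, and 377 and 398 with DMSO. The combination and PF-03084014 arrays were both separate from all the rest, and RXRA was 2.45-fold lower with the combination than with DMSO (-1.29 ± 0.10, adjusted p = 0.00376). TMEM97, a membrane protein that binds the lysosomal exporter NPC1, was 1.58-fold lower (-0.66 ± 0.08, adjusted p = 0.0086) and SLC25A1, the mitochondrial citrate carrier that feeds ACLY, 1.78-fold lower (-0.83 ± 0.16, adjusted p = 0.0313). The median over the 21 genes was 0.129, above the 0.0639 over all genes, whereas that over the listed members was -0.393. PF-03084014 and dexamethasone alone changed 0 of the 21 in the limma fit; at an unadjusted p under 0.05, 1 was lower and 4 were higher with PF-03084014 (4.99% and 8.25% of all genes), and 0 were lower and 2 higher with dexamethasone (3.49% and 5.47%). Against each single compound the combination lowered RXRA and TMEM97, and against dexamethasone it raised CPT1A, the gate of mitochondrial fatty acid oxidation, 1.34-fold (0.42 ± 0.07, adjusted p = 0.0326).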

How the data were processed

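Per the labels, 200 ng of total RNA per sample was amplified with an Affymetrix kit for the 3 prime end, labelled with biotin and hybridised. The authors deposited an intensity on a linear scale for 54675 probe sets; how the scanner values were summarised, normalized and background-corrected is not given in the sources used. Of the 41097 probe sets with 1 gene in GEO's platform annotation (1801 with several and 11777 with none were left out), 41043 had an Entrez ID in the RefSeq table. The brightest by mean log2 stood for each of 19775 genes. Intensities were floored at 16 and taken to log2. A limma 3.58.1 fit in R 4.3.3 gave each group a mean, left 4 residual degrees of freedom and moderated variances with a trend on intensity; the median SE of a difference was 0.178, and the number of arrays limits precision. The fit was tested on simulated data with the same spread per gene in all groups. That could not show the effect of the wider spread between the combination arrays. Values per array are given for members called in any comparison, for the 4 largest differences from DMSO per treatment and for the smallest p of each class; others named are marked. Replicate numbers showed little pairing of the samples over all genes (correlation of deviations -0.0103 to 0.0816), which cannot exclude pairing. The members and lists were chosen with earlier results of these data known. Alternatives changed normalization, floor, dim-gene filter, probe set choice, variance model, samples in the fit and replicate block.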

Additional observations from a re-analysis of the deposited data

How the results depend on the processing

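Counts of members called kept within 1.5 times, and medians within the spread between arrays, except as follows. For PF-03084014 against DMSO the count was 3 with a pseudocount of 16 and with dim genes left out, and 0 with floors of 32 or 64, the mean of all probe sets, no intensity trend, only the groups compared and the replicate block; the median was -0.0534 without probe sets ending in _x_at or _s_at. For dexamethasone it was 1 with the pseudocount (ELOVL6) and 2 with dim genes left out (ELOVL6, STARD4), and FADS2 turned to 0.0724 without those probe sets. For the combination against DMSO the count was 0 with only the groups compared, the median was -0.524 with arrays shifted to a common median, and LSS turned to 0.074 with the mean of all its probe sets, 2 of which are dim. Against dexamethasone the count was 4 with the common median, 7 with the mean of probe sets and with a floor of 64, 5 without the named probe sets and 0 with only the groups compared; the median was -0.458, -0.454 with the mean of probe sets, and -0.204 with quantile normalization and the second combination array left out. Against PF-03084014 the count was 4 with the common median and with the mean of probe sets, 6 with floors of 32 or 64 and without the named probe sets, 5 with no trend, 17 with dim genes left out (16 lower) and 0 with only the groups compared; the medians were -0.373 and -0.432 with the first 2 settings. The interaction's median was -0.345 with the common median and -0.106 with quantile normalization and that array left out. The common median also moved the median of all genes in the interaction to -0.137 and against dexamethasone to -0.0662. With 1 array left out at a time, counts ran over 0 to 1 for PF-03084014, 0 to 1 for dexamethasone, 9 to 22 for both together, 0 to 20 against dexamethasone, 0 to 20 against PF-03084014 and 0 to 5 for the interaction, and medians over -0.170 to -0.119, -0.228 to -0.113, -0.567 to -0.368, -0.372 to -0.261, -0.463 to -0.225 and -0.288 to -0.126 in that order. With the replicate block, members called numbered 0 for PF-03084014, 0 for dexamethasone, 15 for both together, 11 against dexamethasone alone, 8 against PF-03084014 and 0 for the interaction; the samples share only a number. The floor of 64 and the setting that combines quantile normalization with an array left out were chosen after seeing the data. Causes were not tested, other than that fits of fewer arrays or groups have fewer degrees of freedom. For most of these counts the share of all genes called is not given, so they do not describe the members alone. Genes near background, such as MVD, cannot be ordered.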
